A study of Mus musculus with 38 samples.

Results

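Interferon-stimulated genes were followed as a set of 39 genes, listed by symbol for their known induction by interferon, in gastrocnemius muscle of male mice. They were chosen with earlier results of these data known, so their counts are not an independent test. Of the 39, 38 were found among the 27554 genes of the count table through their Ensembl identifiers, and Mx2 was not analysed here. After a filter on low counts 37 of the 38 remained among 12610 genes tested, and only Oas1a fell below it. The table held 38 libraries from 23 mice in 8 groups.

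All mice were male wild-type C57BL/6JRj animals, described in the labels as young or old, and the old mice are called aged here. Cardiotoxin, a snake venom toxin that destroys muscle fibres, was injected into the gastrocnemius of one leg, and both legs were collected 5 days later, so that the contralateral leg was uninjured muscle of an animal that had been injured elsewhere. Mice received vehicle, which was 1% sodium carboxymethyl cellulose, or NAM/PN, which was nicotinamide at 200 mg/kg per day with pyridoxine, a form of vitamin B6, at 4 mg/kg per day in the same vehicle, by oral gavage from before the injury to day 5. The uninjured leg gave libraries of 6 vehicle and 5 NAM/PN young mice and of 6 vehicle and 6 NAM/PN aged mice. Injured muscle came from 5, 3, 3 and 4 mice of these groups, and 15 mice gave both legs. Levels are read counts as CPM, that is, divided by a library total adjusted by TMM, a factor that sets most genes equal between libraries.

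Interferons are cytokines that cells secrete after they detect viral or misplaced nucleic acids. Type I interferons bind the receptor Ifnar1/Ifnar2 and activate the kinases Jak1 and Tyk2, which phosphorylate STAT factors such as Stat2. With Irf9 these enter the factor ISGF3, which binds the interferon-stimulated response element (ISRE) in promoters, whereas the response to interferon gamma runs through gamma-activated sites (GAS). The genes switched on in this way include sensors of viral RNA, transcription factors that prolong the response, proteins that block virus entry, translation or budding, the ubiquitin-like protein Isg15 with its enzymes, and GTPases that attack vacuoles of intracellular pathogens. In injured muscle such genes can be expressed by infiltrating leukocytes as well as by resident cells.

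The 38 genes lay on 16 chromosomes, with 7 on chromosome 11 and 5 on chromosome 5. Ifit2, Ifit3 and Ifit1, which bind foreign RNA, were neighbours on chromosome 19, from 34550694 to 34576419, from 34583531 to 34588731 and from 34640871 to 34650009 of GRCm38. Promoters of 30 of the 39 members were held in the RefSeq table for GRCm38.p6, from 250 bases before to 50 bases after the start, and none was held for Dhx58, Zbp1, Mx1, Mx2, Oas2, Usp18, Iigp1, Rtp4 and Parp14. The ISRE core, GAAA followed by any 2 bases and GAAA again, read on either strand with overlapping matches counted separately, was found in 18 of these 30 promoters (60.0%) against 3.99% of 27025 genes. It was present in 3 of 3 RNA sensor and kinase promoters, in 7 of 9 of the antiviral effectors, in 5 of 5 of the GTPases, in 1 of 3 of the transcription factors, in 1 of 3 of the Isg15 class and in 1 of 7 of the group with other functions. The GAS core TTCNNNGAA, which reads the same on both strands, was found in 8 of 30 (26.7%) against 9.55% of genes, and 6 promoters held both.

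The promoters of 6 members were chosen to show where the ISRE letters fall in genes that carry the results described later. Capitals mark this core or its reverse complement, and each sequence runs 5′ to 3′ on the strand of the gene and ends at the base before the RefSeq start.
Stat2 (chr10:128270248-128270497, plus strand): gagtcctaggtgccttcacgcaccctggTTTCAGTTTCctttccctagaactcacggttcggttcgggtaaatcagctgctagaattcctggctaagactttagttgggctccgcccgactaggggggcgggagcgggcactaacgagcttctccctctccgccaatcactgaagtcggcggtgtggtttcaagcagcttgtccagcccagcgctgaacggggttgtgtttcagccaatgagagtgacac
Ifit3 (chr19:34583279-34583528, plus strand): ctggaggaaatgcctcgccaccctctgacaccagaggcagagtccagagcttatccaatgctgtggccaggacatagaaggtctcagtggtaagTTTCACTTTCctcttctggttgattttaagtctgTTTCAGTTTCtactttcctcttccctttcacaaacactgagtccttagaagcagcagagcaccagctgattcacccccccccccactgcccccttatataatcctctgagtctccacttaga
Isg15 (chr4:156200819-156201068, minus strand): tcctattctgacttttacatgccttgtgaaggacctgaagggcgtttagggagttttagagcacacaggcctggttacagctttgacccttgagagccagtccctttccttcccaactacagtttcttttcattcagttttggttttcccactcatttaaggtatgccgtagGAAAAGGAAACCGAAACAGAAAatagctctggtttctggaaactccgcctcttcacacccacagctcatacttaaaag
Rsad2 (chr12:26456453-26456702, minus strand): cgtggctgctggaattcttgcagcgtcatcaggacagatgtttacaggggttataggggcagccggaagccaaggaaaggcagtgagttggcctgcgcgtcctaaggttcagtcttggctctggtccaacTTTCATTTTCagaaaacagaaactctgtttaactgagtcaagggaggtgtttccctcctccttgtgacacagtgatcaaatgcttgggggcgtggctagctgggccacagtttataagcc
Gbp7 (chr3:142530086-142530335, plus strand): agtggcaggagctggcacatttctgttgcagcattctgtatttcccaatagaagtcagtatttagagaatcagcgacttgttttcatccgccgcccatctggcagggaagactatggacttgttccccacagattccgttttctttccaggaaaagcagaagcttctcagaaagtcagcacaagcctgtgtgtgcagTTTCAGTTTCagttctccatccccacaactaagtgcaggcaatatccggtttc
Cxcl10 (chr5:92348890-92349139, minus strand): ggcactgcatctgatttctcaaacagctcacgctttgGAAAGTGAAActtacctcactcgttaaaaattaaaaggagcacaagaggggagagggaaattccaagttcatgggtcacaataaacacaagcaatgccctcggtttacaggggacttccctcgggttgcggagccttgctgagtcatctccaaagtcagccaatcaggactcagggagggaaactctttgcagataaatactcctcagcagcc
Ifit3 held 2 separate matches, the first beginning 156 bases before the start. Isg15 held 3 overlapping matches that began 78 bases before the start. Single matches began 222 bases before the start of Stat2, 213 before that of Cxcl10, 120 before that of Rsad2 and 53 before that of Gbp7. These are matches of letters and not measured binding sites.

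Reads per library ranged from 4032414 to 7507191 (median 4983924). The defining transcripts of skeletal muscle were abundant, with 7 fast-fibre genes such as Acta1 and Myh4 summing to between 100211 and 184372 CPM in contralateral and between 24090 and 64541 CPM in injured muscle. A single library stood apart. In replicate 6 of the aged vehicle contralateral group, a mouse without an injured library, 8 acute-phase genes summed to 1083 CPM against at most 86.8 CPM in the other 22 contralateral libraries. Of these 8 genes, Saa3, Lcn2 and Chil3, at 934, 60.3 and 20.6 CPM there, were known from earlier results. The sum therefore describes the library and is not a test. The main counts of called members that rest on this library are given with and without it, as are many of their values. Counts of called genes on other lists, and the remaining values of aged vehicle mice, include it.

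Members differed widely in level. Ifitm3, which hinders the entry of enveloped viruses, averaged 241 CPM over all 38 libraries, and the next were the GTPase Gbp7 at 40.4, the secreted glycoprotein Lgals3bp at 38.5 and Parp14, a mono-ADP-ribosyltransferase, at 24.9 CPM. The most abundant of the other classes were Trim25 at 20.99, Irf9 at 20.3 and Ddx58 at 9.80 CPM. Reads came from the 3′ ends of transcripts, so read number depended little on transcript length.

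Injured was compared with contralateral muscle within each age and treatment. In young vehicle mice 32 of 37 members were higher in the injured leg at an adjusted p under 0.05 (edgeR quasi-likelihood test, Benjamini-Hochberg over 12610 genes) and 0 were lower, where 29.3% of all genes tested were called higher and 26.2% lower. In young NAM/PN mice 28 were higher and 0 lower (22.4% and 18.1% of genes), and in aged NAM/PN mice 33 were higher and 0 lower (29.2% and 26.1%). In aged vehicle mice 16 were higher and 0 lower (20.8% and 17.5%), and without contralateral replicate 6 there were 30 higher and 0 lower (22.2% and 17.8%). The median log2 fold change of the members was 1.53 and 1.55 in young mice on vehicle and NAM/PN and 0.93 and 1.71 in aged mice on vehicle and NAM/PN, the order used for every set of 4 values, against 0.05, 0.04, -0.01 and 0.03 for all genes, and it was 1.52 in aged vehicle mice without replicate 6. All values of a member in the injured leg lay above all values in the contralateral leg for 28 members in young vehicle (21.1% of genes), 30 in young NAM/PN (23.8%), 27 in aged NAM/PN (20.8%) and 8 in aged vehicle mice (17.3%), and for 27 in aged vehicle mice without replicate 6 (20.7%).

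These log2 fold changes are relative to a scale on which most genes are equal. Scaled by total counts alone, a setting chosen after seeing the data, the median of all genes rose to 0.99, 0.83, 0.69 and 1.08 in the 4 comparisons, and the members' medians lay 1.47, 1.51, 0.85 and 1.68 above it. Markers of macrophages moved with the members. Their 10 genes summed to between 99.8 and 636 CPM in 22 contralateral libraries and to 1419 CPM in replicate 6, and between 1230 and 2852 CPM in injured libraries, and 10, 10, 8 and 10 of the 10 were called higher in the 4 comparisons. Fibroblast markers summed to between 529 and 2646 CPM in contralateral and between 2677 and 10171 CPM in injured libraries. T and NK cell markers summed to between 0 and 2.94 CPM in contralateral and between 4.19 and 18.9 CPM in injured libraries. The 2.94 CPM was that of replicate 6, and the other 22 contralateral libraries reached at most 1.40 CPM. The fibre markers given above were lower in injured libraries. The part of these cells in the members' levels was not tested, and in bulk muscle more cells of a type and more RNA per cell cannot be told apart. In all, 14 members were called higher in all 4 comparisons, 15 in 3, 4 in 2 and 4 in none, where 16.4%, 6.02% and 5.5% of all genes were in 4, 3 and 2, and 8194 genes in none. Without replicate 6 in the aged vehicle comparison 24 members were called in all 4, 9 in 3 and 4 in none. The shares of all genes were not counted for this setting. In it 2797 genes were called higher in aged vehicle mice, against 2627 with all libraries.

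**Figure D1:**
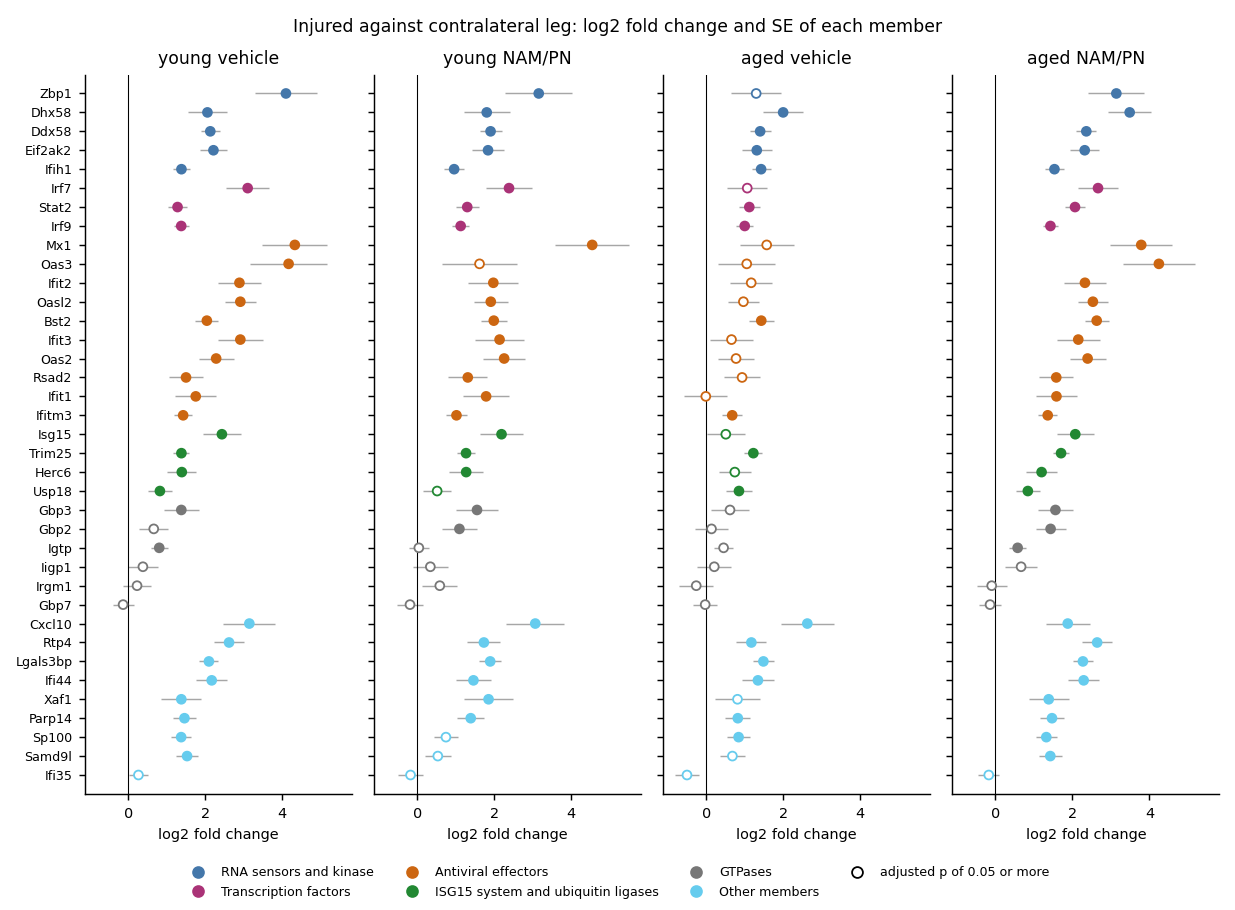
Log2 fold change (x axis) of each of the 37 members tested (y axis, ordered by role) in injured against contralateral muscle, in 1 panel for each age and treatment. Points are edgeR estimates, with standard errors derived from the F statistic of the test as lines. They are filled where the adjusted p was under 0.05, and fewer are filled in aged vehicle mice, 16 of 37, than in the other panels.

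The RNA sensors and the kinase Eif2ak2, which halts translation when it binds double-stranded RNA, were called higher in nearly every comparison, with 5 of 5 in young vehicle, 5 in young NAM/PN, 4 in aged vehicle (5 without replicate 6) and 5 in aged NAM/PN mice. Ddx58, which encodes the RNA sensor RIG-I, lay at 2.57 to 6.62 CPM (median 3.599) in young vehicle, at 3.74, 4.96, 3.97, 3.23 and 5.86 CPM in young NAM/PN, 2.89 to 7.36 CPM (median 5.48) in aged vehicle and 2.86 to 5.83 CPM (median 3.62) in aged NAM/PN muscle. In the injured leg it was measured at 18.6, 15.7, 22.1, 21.1 and 14.4 CPM in young vehicle, 15.6, 23.3 and 10.3 CPM in young NAM/PN, 15.8, 17.8 and 10.1 CPM in aged vehicle and 19.5, 18.1, 23.4 and 22.8 CPM in aged NAM/PN mice. Every injured library was above every contralateral one, and the log2 fold changes were 2.13 ± 0.25 in young vehicle, 1.90 ± 0.29 in young NAM/PN, 1.40 ± 0.27 in aged vehicle and 2.36 ± 0.26 in aged NAM/PN mice (adjusted p = 4.75e-09 to 1.39e-04 by edgeR).

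Ifih1, which encodes the long double-stranded RNA sensor MDA5, lay on the contralateral side at 3.36 to 4.65 CPM (median 3.77) in young vehicle, at 4.24, 2.599, 3.97, 4.44 and 4.03 CPM in young NAM/PN, 2.23 to 5.56 CPM (median 4.02) in aged vehicle and 2.15 to 5.47 CPM (median 3.77) in aged NAM/PN muscle. Its injured values were 10.9, 6.24, 14.5, 11.3 and 8.596 CPM in young vehicle, 7.95, 9.19 and 5.43 CPM in young NAM/PN, 11.1, 13.7 and 8.09 CPM in aged vehicle and 11.5, 10.3, 12.04 and 10.995 CPM in aged NAM/PN mice. The legs did not overlap within any of the groups, although the lowest young NAM/PN injured value was within the contralateral range of aged mice. Fold changes on the log2 scale were 1.38 ± 0.23 in young vehicle, 0.96 ± 0.27 in young NAM/PN, 1.42 ± 0.25 in aged vehicle and 1.53 ± 0.24 in aged NAM/PN mice. Dhx58, the third member of this RNA helicase family, was low in contralateral muscle, at 0.255 to 1.23 CPM (median 0.896) in young vehicle, at 0, 1.18, 0.497, 0.606 and 1.099 CPM in young NAM/PN, 0 to 3.43 CPM (median 0.589) in aged vehicle and 0 to 0.952 CPM (median 0.3602) in aged NAM/PN muscle. Its injured levels were 3.28, 4.87, 3.81, 2.58 and 2.199 CPM in young vehicle, 2.47, 2.54 and 2.44 CPM in young NAM/PN, 5.197, 4.83 and 3.49 CPM in aged vehicle and 4.22, 7.08, 5.88 and 3.03 CPM in aged NAM/PN mice. The legs did not overlap within any group, and the highest contralateral value was that of replicate 6. Dhx58 was among the 3 largest called changes of aged mice, with log2 fold changes of 1.99 ± 0.52 in aged vehicle, or 3.02 ± 0.51 (adjusted p = 2.15e-05) without replicate 6, and 3.49 ± 0.56 in aged NAM/PN muscle.

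Zbp1, a sensor of left-handed nucleic acids that can start cell death, lay in the contralateral leg at 0 to 0.857 CPM (median 0.244) in young vehicle, at 0, 0, 0.248, 0.606 and 0.916 CPM in young NAM/PN, 0 to 10.1 CPM (median 0.592) in aged vehicle and 0 to 1.17 CPM (median 0.6403) in aged NAM/PN muscle. The injured leg had 7.81, 1.83, 6.05, 8.86 and 3.898 CPM in young vehicle, 3.84, 3.68 and 3.39 CPM in young NAM/PN, 6.99, 8.002 and 3.79 CPM in aged vehicle and 6.86, 6.46, 6.57 and 3.82 CPM in aged NAM/PN mice. The legs overlapped in aged vehicle mice, through replicate 6, and in no other group. Zbp1 rose with log2 fold changes of 4.10 ± 0.80 in young vehicle and 3.15 ± 0.87 in young NAM/PN mice. It was not called in aged vehicle mice, where its log2 fold change was 1.29 ± 0.65 with all libraries and 2.98 ± 0.60 (adjusted p = 1.89e-04) without replicate 6.

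All 3 transcription factors were called higher in 3 of the 4 comparisons and 2 of 3 in aged vehicle mice, where all 3 were called without replicate 6. Irf9, the DNA-binding subunit of ISGF3, stood in the contralateral leg at 8.59 to 15.9 CPM (median 11.7) in young vehicle, at 11.2, 15.4, 12.2, 15.4 and 10.99 CPM in young NAM/PN, 8.23 to 23.05 CPM (median 13.4) in aged vehicle and 9.55 to 16.6 CPM (median 12.5) in aged NAM/PN muscle. Injured libraries gave 31.7, 23.9, 36.6, 36.4 and 27.6 CPM in young vehicle, 29.6, 28.6 and 27.1 CPM in young NAM/PN, 29.2, 34.8 and 23.5 CPM in aged vehicle and 31.9, 37.2, 34.1 and 36.3 CPM in aged NAM/PN mice. All of the injured values exceeded all of the contralateral ones, although replicate 6 of the aged vehicle group came within 1 CPM of them, and the log2 fold changes were 1.38 ± 0.19 in young vehicle, 1.13 ± 0.23 in young NAM/PN, 1.00 ± 0.22 in aged vehicle and 1.43 ± 0.20 in aged NAM/PN mice. Irf9 overlaps Rnf31 on the same strand, so reads in the shared part cannot be assigned to one of them.

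Irf7, which amplifies type I interferon production, ranged widely within the aged groups. Its contralateral levels lay at 0.872 to 3.97 CPM (median 1.898) in young vehicle, at 0.997, 1.89, 3.23, 4.44 and 3.11 CPM in young NAM/PN, 0.504 to 38.9 CPM (median 6.04) in aged vehicle and 3.0002 to 10.3 CPM (median 4.28) in aged NAM/PN muscle. Injured values were 16.2, 11.4, 24.9, 19.98 and 21.2 CPM in young vehicle, 11.5, 22.8 and 9.496 CPM in young NAM/PN, 27.4, 25.7 and 18.3 CPM in aged vehicle and 31.2, 40.6, 32.8 and 34.6 CPM in aged NAM/PN mice. In 3 groups the legs were apart, and in aged vehicle mice replicate 6 at 38.9 CPM was above the 3 injured libraries. Its log2 fold changes were 3.10 ± 0.55 in young vehicle, 2.38 ± 0.61 in young NAM/PN, 1.06 ± 0.52 in aged vehicle and 2.67 ± 0.51 in aged NAM/PN mice, and the value for aged vehicle mice was 2.13 ± 0.44 (adjusted p = 2.69e-04) without replicate 6. Stat2 rose in all 4 comparisons, with log2 fold changes of 1.28 ± 0.25 in young vehicle, 1.30 ± 0.29 in young NAM/PN, 1.12 ± 0.27 in aged vehicle and 2.07 ± 0.27 in aged NAM/PN mice.

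Of the 10 antiviral effectors tested, 10 were called higher in young vehicle, 9 in young NAM/PN, 10 in aged NAM/PN and 2 in aged vehicle mice. Without replicate 6 of the contralateral group, 9 of 10 were called in aged vehicle mice, all but Ifit1. The 2 called there with all libraries were Bst2, which tethers budding virions to the cell surface, and Ifitm3. Ifitm3 was found in contralateral muscle at 89.7 to 156 CPM (median 133) in young vehicle, at 145, 113, 96.4, 165 and 154 CPM in young NAM/PN, 104 to 419 CPM (median 209) in aged vehicle and 137 to 238 CPM (median 167) in aged NAM/PN muscle. In injured muscle it was at 342, 250.2, 432, 395 and 300.0 CPM in young vehicle, 300.2, 313 and 206 CPM in young NAM/PN, 344, 352 and 352 CPM in aged vehicle and 368, 411, 433 and 559 CPM in aged NAM/PN mice. Within groups, only aged vehicle libraries overlapped, through replicate 6 at 419 CPM, and the log2 fold changes were 1.43 ± 0.23 in young vehicle, 1.02 ± 0.27 in young NAM/PN, 0.67 ± 0.26 in aged vehicle and 1.36 ± 0.24 in aged NAM/PN mice. For aged vehicle mice the value was 0.97 ± 0.24 without replicate 6. Rsad2, which encodes viperin, was in the contralateral leg at 5.71 to 21.4 CPM (median 10.4) in young vehicle, at 12.96, 4.72, 5.46, 17.98 and 13.2 CPM in young NAM/PN, 3.34 to 52.6 CPM (median 14.2) in aged vehicle and 4.36 to 19.05 CPM (median 15.6) in aged NAM/PN muscle. The injured leg had 43.3, 17.2, 40.3, 43.3 and 18.7 CPM in young vehicle, 29.9, 33.6 and 18.04 CPM in young NAM/PN, 39.2, 36.7 and 31.8 CPM in aged vehicle and 34.5, 32.8, 66.8 and 39.4 CPM in aged NAM/PN mice. Young vehicle libraries overlapped between the legs, and aged NAM/PN libraries did not. Rsad2 had log2 fold changes of 1.501 ± 0.43 in young vehicle, 1.31 ± 0.51 in young NAM/PN, 0.93 ± 0.48 in aged vehicle and 1.58 ± 0.45 in aged NAM/PN mice, of which the aged vehicle value was not called with all libraries and was 1.62 ± 0.43 (adjusted p = 0.00313) without replicate 6.

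The largest called changes in this class were in genes close to 0 in uninjured muscle. Genes this low there could pass the filter on low counts only through injured libraries, which favoured a rise among those tested. The same holds for Dhx58 and Zbp1 above. Mx1 had 5 reads in all in 6 young vehicle contralateral libraries and 174 in 5 injured ones. Its contralateral levels lay at 0 to 0.581 CPM (median 0.143) in young vehicle, at 0.249, 0, 0, 0.202 and 0.366 CPM in young NAM/PN, 0 to 5.23 CPM (median 0.258) in aged vehicle and 0 to 1.44 CPM (median 0) in aged NAM/PN muscle. Injured levels were 7.65, 1.98, 7.498, 4.35 and 2.799 CPM in young vehicle, 4.39, 4.1001 and 5.29 CPM in young NAM/PN, 3.23, 5.17 and 3.29 CPM in aged vehicle and 4.35, 5.23, 6.703 and 3.35 CPM in aged NAM/PN mice. As for Zbp1, the legs overlapped in aged vehicle mice alone, where replicate 6 was above the 3 injured libraries. The log2 fold changes of Mx1 were 4.33 ± 0.84 in young vehicle, 4.54 ± 0.96 in young NAM/PN, 1.57 ± 0.70 in aged vehicle and 3.79 ± 0.81 in aged NAM/PN mice, of which the aged vehicle value was 3.44 ± 0.74 (adjusted p = 3.87e-04) without replicate 6. Oas3, which makes the oligoadenylate signal for RNA decay, had 2 reads in the young vehicle contralateral group and 71 in the injured group, a ratio of 22.1 with a 95% exact counting interval of 5.89 to 186. In aged NAM/PN mice Oas3 had 3 reads against 78, a ratio of 21.7 (7.16 to 108). Its contralateral levels were 0 to 0.447 CPM (median 0) in young vehicle, at 0, 0, 0, 0.606 and 0.732 CPM in young NAM/PN, 0 to 4.904 CPM (median 0.224) in aged vehicle and 0 to 0.619 CPM (median 0) in aged NAM/PN muscle, and injured levels were 1.87, 1.52, 2.24, 2.42 and 1.699 CPM in young vehicle, 0.9599, 0.848 and 1.09 CPM in young NAM/PN, 2.51, 3.17 and 1.398 CPM in aged vehicle and 2.51, 3.08, 3.01 and 2.71 CPM in aged NAM/PN mice. In aged vehicle mice replicate 6 was again above the 3 injured libraries, and the log2 fold change of Oas3 was 1.05 ± 0.74 with all libraries and 3.44 ± 0.76 (adjusted p = 5.29e-04) without replicate 6. Oas1a, below the filter, had 0 reads in young vehicle contralateral muscle, which allows up to 3, and 16 reads in the injured leg. These intervals cover counting error only. Oasl2, Ifit3, Ifit2 and Oas2 were called in all comparisons except that in aged vehicle mice, with log2 fold changes of 1.91 to 2.91 in the 3 others. All 4 were called in aged vehicle mice without replicate 6, at 1.95 ± 0.28 (adjusted p = 1.78e-06), 2.17 ± 0.43 (adjusted p = 1.36e-04), 1.92 ± 0.55 (adjusted p = 0.00529) and 1.36 ± 0.47 (adjusted p = 0.0207) by edgeR. Ifit1 had log2 fold changes of 1.75 ± 0.54 in young vehicle, 1.79 ± 0.60 in young NAM/PN, -0.01 ± 0.56 in aged vehicle and 1.59 ± 0.52 in aged NAM/PN mice, and in aged vehicle mice it was not called without replicate 6 either, at 1.03 ± 0.47 (adjusted p = 0.0796).

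Among Isg15, its deconjugating protease Usp18 and the ubiquitin ligases Trim25 and Herc6, 4, 3, 2 and 4 were called higher, in the order used before, with 3 in aged vehicle mice without replicate 6. Trim25, which activates RIG-I, was in the contralateral leg at 10.3 to 14.5 CPM (median 12.3) in young vehicle, at 11.5, 10.6, 8.45, 15.4 and 14.6 CPM in young NAM/PN, 8.06 to 20.9 CPM (median 12.7) in aged vehicle and 7.91 to 16.3 CPM (median 11.3) in aged NAM/PN muscle. Its levels in the injured leg were 33.7, 24.97, 38.4, 31.1 and 33.5 CPM in young vehicle, 31.1, 33.9 and 22.8 CPM in young NAM/PN, 33.3, 36.2 and 27.6 CPM in aged vehicle and 39.6, 44.8, 39.9 and 35.4 CPM in aged NAM/PN mice. The lowest injured value of any group exceeded the highest contralateral value of any group. Trim25 had log2 fold changes of 1.38 ± 0.21 in young vehicle, 1.27 ± 0.24 in young NAM/PN, 1.22 ± 0.23 in aged vehicle and 1.71 ± 0.22 in aged NAM/PN mice. Isg15 itself was in the contralateral leg at 1.84 to 3.78 CPM (median 2.82) in young vehicle, at 1.49, 1.18, 1.99, 2.83 and 4.03 CPM in young NAM/PN, 1.85 to 29.7 CPM (median 3.82) in aged vehicle and 0.616 to 6.44 CPM (median 4.06) in aged NAM/PN muscle. After injury it was at 19.8, 8.22, 18.4, 13.2 and 16.6 CPM in young vehicle, 12.6, 9.76 and 10.2 CPM in young NAM/PN, 15.95, 10.2 and 9.19 CPM in aged vehicle and 17.7, 20.1, 20.9 and 7.97 CPM in aged NAM/PN mice. Replicate 6 of the aged vehicle group, at 29.7 CPM, was above every injured library, whereas all other contralateral libraries were below all injured ones. The log2 fold changes of Isg15 were 2.43 ± 0.49 in young vehicle, 2.19 ± 0.56 in young NAM/PN, 0.51 ± 0.50 in aged vehicle and 2.07 ± 0.48 in aged NAM/PN mice, and the aged vehicle value was 1.72 ± 0.37 (adjusted p = 4.03e-04) without replicate 6.

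Of the GTPases 2, 2, 0 and 3 of 6 were called higher, and without replicate 6 the count in aged vehicle mice was 3, namely Gbp2, Gbp3 and Igtp. With total-count scaling 6, 4, 2 and 6 were called, and all 6 were positive in every comparison, against 5, 5, 4 and 4 with TMM. Gbp7, a guanylate-binding protein, was in the contralateral leg at 34.95 to 53.5 CPM (median 39.7) in young vehicle, at 41.6, 49.8, 25.8, 40.2 and 36.1 CPM in young NAM/PN, 14.02 to 84.5 CPM (median 35.8) in aged vehicle and 24.3 to 74.7 CPM (median 42.7) in aged NAM/PN muscle. The injured leg gave 42.2, 30.9, 46.96, 41.4 and 29.6 CPM in young vehicle, 37.8, 34.8 and 29.2 CPM in young NAM/PN, 47.3, 38.8 and 34.1 CPM in aged vehicle and 41.9, 33.2, 52.5 and 35.5 CPM in aged NAM/PN mice. The legs overlapped in every group, and the log2 fold changes were -0.13 ± 0.27 in young vehicle, -0.19 ± 0.33 in young NAM/PN, -0.03 ± 0.32 in aged vehicle and -0.14 ± 0.29 in aged NAM/PN mice, all of which turned positive with total-count scaling. Without replicate 6 the aged vehicle value was 0.33 ± 0.28 (adjusted p = 0.352). Iigp1, an immunity-related GTPase, was at 7.01 to 22.1 CPM (median 12.7) in young vehicle, at 13.5, 19.8, 13.4, 15.96 and 10.6 CPM in young NAM/PN, 5.56 to 43.8 CPM (median 11.96) in aged vehicle and 3.08 to 27.4 CPM (median 12.4) in aged NAM/PN muscle. Injured muscle had 20.5, 17.7, 19.7, 12.6 and 11.9 CPM in young vehicle, 19.2, 16.3 and 20.1 CPM in young NAM/PN, 21.7, 20.5 and 18.3 CPM in aged vehicle and 24.4, 18.5, 36.7 and 16.1 CPM in aged NAM/PN mice. These also overlapped in every group, with log2 fold changes of 0.38 ± 0.39 in young vehicle, 0.34 ± 0.46 in young NAM/PN, 0.21 ± 0.44 in aged vehicle and 0.67 ± 0.41 in aged NAM/PN mice. For aged vehicle mice the value of Iigp1 was 0.76 ± 0.40 without replicate 6, also not called. Irgm1 was the third GTPase called in no comparison, and its aged vehicle value was -0.26 ± 0.44 with all libraries and 0.22 ± 0.43 (adjusted p = 0.713) without replicate 6. Gbp3 was called in 3 comparisons, and Gbp2 and Igtp in 2 each. Gbp2 changed by 1.09 ± 0.45 in young NAM/PN and 1.43 ± 0.39 in aged NAM/PN mice, and Igtp, which overlaps Irgm2 on the same strand, by 0.80 ± 0.22 in young vehicle and 0.58 ± 0.22 in aged NAM/PN mice. Guanylate-binding proteins share sequence, and how reads common to paralogues were counted was not stated.

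Of the 9 members with other functions 8, 6, 6 and 8 were called higher, with 7 in aged vehicle mice without replicate 6. Cxcl10, a chemokine that draws T cells, was low in contralateral muscle, at 0 to 0.764 CPM (median 0.452) in young vehicle, at 0.249, 0.709, 0, 0.404 and 0.732 CPM in young NAM/PN, 0 to 1.14 CPM (median 0.522) in aged vehicle and 0 to 4.52 CPM (median 1.11) in aged NAM/PN muscle. In injured muscle it was at 5.31, 1.37, 5.66, 4.995 and 2.898 CPM in young vehicle, 6.31, 2.69 and 2.44 CPM in young NAM/PN, 3.41, 4.001 and 4.39 CPM in aged vehicle and 7.65, 4.15, 9.58 and 1.91 CPM in aged NAM/PN mice. The groups overlapped only in aged NAM/PN mice, where 1 contralateral library reached 4.52 CPM. Cxcl10 had log2 fold changes of 3.15 ± 0.68 in young vehicle, 3.06 ± 0.76 in young NAM/PN, 2.62 ± 0.68 in aged vehicle and 1.88 ± 0.57 in aged NAM/PN mice and was the largest called change in aged vehicle mice with all libraries. Without replicate 6 it was 2.97 ± 0.75 (adjusted p = 0.00199) there, below Mx1, Oas3, Dhx58 and Zbp1. It overlaps Art3 on the opposite strand, and the strand setting of the counting was not stated.

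Lgals3bp was measured in uninjured muscle at 13.4 to 17.3 CPM (median 14.1) in young vehicle, at 15.7, 14.2, 11.7, 18.99 and 14.8 CPM in young NAM/PN, 10.1 to 48.2 CPM (median 19.6) in aged vehicle and 14.8 to 26.5 CPM (median 17.7) in aged NAM/PN muscle. Injured muscle gave 59.1, 51.5, 79.3, 69.4 and 58.2 CPM in young vehicle, 52.8, 73.4 and 42.3 CPM in young NAM/PN, 66.8, 72.3 and 58.4 CPM in aged vehicle and 87.4, 84.7, 84.3 and 107 CPM in aged NAM/PN mice. The legs were separate in every group, replicate 6 included, and the log2 fold changes were 2.10 ± 0.25 in young vehicle, 1.89 ± 0.29 in young NAM/PN, 1.48 ± 0.27 in aged vehicle and 2.27 ± 0.26 in aged NAM/PN mice (adjusted p = 6.47e-09 to 6.27e-05 by edgeR). For aged vehicle mice the value was 1.84 ± 0.24 without replicate 6. Parp14 was on the contralateral side at 8.85 to 19.4 CPM (median 11.6) in young vehicle, at 19.7, 8.98, 7.95, 13.1 and 13.001 CPM in young NAM/PN, 7.79 to 41.7 CPM (median 20.1) in aged vehicle and 12.6 to 24.9 CPM (median 15.3) in aged NAM/PN muscle. On the injured side it was at 35.8, 27.9, 50.9, 45.9 and 23.7 CPM in young vehicle, 35.7, 38.03 and 24.96 CPM in young NAM/PN, 42.8, 41.3 and 26.96 CPM in aged vehicle and 36.7, 40.8, 60.5 and 47.5 CPM in aged NAM/PN mice. Within groups, only replicate 6 of the aged vehicle mice, at 41.7 CPM, reached the injured range. The log2 fold changes of Parp14 were 1.46 ± 0.30 in young vehicle, 1.39 ± 0.35 in young NAM/PN, 0.82 ± 0.33 in aged vehicle and 1.47 ± 0.31 in aged NAM/PN mice, and the aged vehicle value was 1.16 ± 0.32 without replicate 6. Ifi35, called in no comparison, had values of 0.26 ± 0.26 in young vehicle, -0.18 ± 0.31 in young NAM/PN, -0.50 ± 0.30 in aged vehicle and -0.17 ± 0.28 in aged NAM/PN mice.

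**Figure D2:**
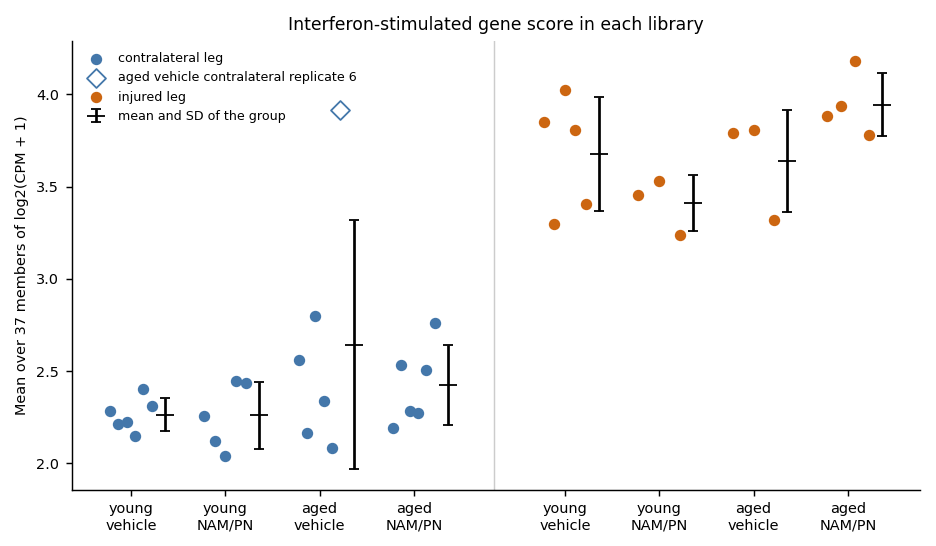
Mean of log2(CPM + 1) over the 38 members, Oas1a included (y axis, where the label gives 37), in each library, by group and leg (x axis). Black bars are the group mean and SD. Contralateral libraries lie between 2.04 and 2.80 except replicate 6 of the aged vehicle group at 3.91, and injured libraries between 3.24 and 4.18.

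Genes that carry or set the signal were taken as 51 listed genes, of which 40 passed the filter. Their counts and values for aged vehicle mice include contralateral replicate 6. Interferon genes themselves were close to undetected. Ifnb1 had 3 reads in all and Ifng 8 reads over the 38 libraries, and Ifna1, Ifna2, Ifna4, Ifnk, Ifne, Ifnl2 and Ifnl3 had 0 reads in every library, which allows up to 3 in each. Of the 5 receptor chains tested, 4, 3, 4 and 4 were called higher in injured muscle, 0 lower. Ifnar1 had log2 fold changes of 1.48 ± 0.31 in young vehicle, 1.79 ± 0.37 in young NAM/PN, 1.85 ± 0.36 in aged vehicle and 1.69 ± 0.32 in aged NAM/PN mice. Ifnar2 had log2 fold changes of 1.69 ± 0.21 in young vehicle, 1.98 ± 0.24 in young NAM/PN, 1.58 ± 0.23 in aged vehicle and 2.04 ± 0.22 in aged NAM/PN mice. Ifngr2, which pairs with Ifngr1 for interferon gamma, was called in none, with log2 fold changes of -0.57 to -0.13.

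Of 10 kinases, STAT factors and interferon regulatory factors, 6, 4, 3 and 6 were called higher and 2, 1, 1 and 2 lower. Irf8, a factor of the myeloid lineage, had log2 fold changes of 2.49 ± 0.30 in young vehicle, 2.27 ± 0.34 in young NAM/PN, 2.18 ± 0.32 in aged vehicle and 2.52 ± 0.30 in aged NAM/PN mice. Jak2, which serves the interferon gamma receptor, fell in all 4 comparisons, with log2 fold changes of -1.47 ± 0.25 in young vehicle, -1.73 ± 0.31 in young NAM/PN, -0.94 ± 0.30 in aged vehicle and -1.40 ± 0.28 in aged NAM/PN mice. Of 10 sensors and adaptors upstream of interferon, 8, 6, 5 and 7 were called higher and 1, 1, 0 and 1 lower. Tmem173, which encodes the DNA-sensing adaptor STING, had log2 fold changes of 3.07 ± 0.30 in young vehicle, 1.93 ± 0.32 in young NAM/PN, 2.06 ± 0.30 in aged vehicle and 2.43 ± 0.29 in aged NAM/PN mice. Mavs, the mitochondrial adaptor of RIG-I and MDA5, was the one called lower, at -1.52 ± 0.22, -0.81 ± 0.26 and -1.18 ± 0.24 in young vehicle, young NAM/PN and aged NAM/PN mice, and was not called in aged vehicle mice at -0.62 ± 0.25. With total-count scaling Jak2 lay between -0.96 and -0.25 in the 4 comparisons and was called in young NAM/PN mice only, whereas Mavs was called in young vehicle mice only, at -0.58, and was at 0.06 in aged vehicle mice.

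Of 5 inhibitors of the signal, 3, 1, 1 and 3 were called higher and 0, 1, 0 and 0 lower. Ptpn6, a phosphatase of blood cells, had the largest changes, at 3.86 ± 0.48 in young vehicle, 2.78 ± 0.50 in young NAM/PN, 2.41 ± 0.46 in aged vehicle and 3.38 ± 0.47 in aged NAM/PN mice. Of 10 genes for antigen presentation by MHC class I, many of which interferons also induce, 9, 9, 5 and 9 were called higher and 0 lower. B2m, the invariant light chain, had log2 fold changes of 1.62 ± 0.23 in young vehicle, 1.61 ± 0.27 in young NAM/PN, 1.20 ± 0.26 in aged vehicle and 2.05 ± 0.24 in aged NAM/PN mice. Tap1, which pumps peptides into the endoplasmic reticulum, had log2 fold changes of 2.57 ± 0.34 in young vehicle, 1.94 ± 0.38 in young NAM/PN, 1.58 ± 0.35 in aged vehicle and 2.48 ± 0.34 in aged NAM/PN mice. None of the 40 genes was called in any comparison of age or of NAM/PN, or in an interaction.

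The library that stood apart was described member by member. In replicate 6 of the aged vehicle contralateral group 35 of 38 members were above all other 5 libraries of the group, where 18.0% of the genes tested were, and 33 were above all of the other 22 contralateral libraries (9.76% of genes). Isg15 was at 29.7 CPM there, against 1.85 to 4.67 CPM in the other 5 mice. Ifit3 reached 41.8 CPM against 1.805 to 5.54. Ifit1 had 42.0 CPM, compared with 1.06 to 8.51. These 3 genes were also above all 3 injured libraries of aged vehicle mice. Over all 38 members, 20 were above the range of those injured libraries, 10 within it and 8 below it, and with total-count scaling 10 were above, 12 within and 16 below.

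The GTPases, of which none was called after injury in this group with all libraries, were high in replicate 6. Gbp2 was at 17.2 CPM against 2.24 to 5.04 in the other 5, Gbp7 at 84.5 against 14.02 to 43.1, and Iigp1 at 43.8 against 5.56 to 20.2. All 6 GTPases were above the other 22 contralateral libraries. Members below the range of the aged vehicle injured libraries included Ddx58 at 7.36, Ifih1 at 5.56, Trim25 at 20.9 and Cxcl10 at 1.14 CPM. The 3 members not above the other 5 libraries were Ifi35 at 12.9, Herc6 at 9.32 and Xaf1 at 1.798 CPM.

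Other transcripts differed in the same library. Markers of neutrophils, 7 genes, summed to 130.4 CPM against 5.56 to 13.7 in the other 5, with S100a8 at 77.2 and S100a9 at 43.8, and with Ly6g at 0.817 and Mpo at 0. The acute-phase genes, some of them known from earlier results, summed to 1083 CPM against 3.53 to 16.6 in the same 5, of which Saa3 made 934. Macrophage markers summed to 1419 CPM against 107 to 636, and 9 of 10 were above the other 22 contralateral libraries. Endothelial markers summed to 106 CPM against 120 to 174, and the sum of the fibre markers was within the range of the group, although Tnnt3 at 16846 and Myh4 at 28533 CPM were below all other 5 libraries. MHC class I genes summed to 1369 CPM against 475 to 1031. Reads of all 9 listed interferon genes were 0. The part of these cells in the members' levels was not tested.

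**Figure D3:**
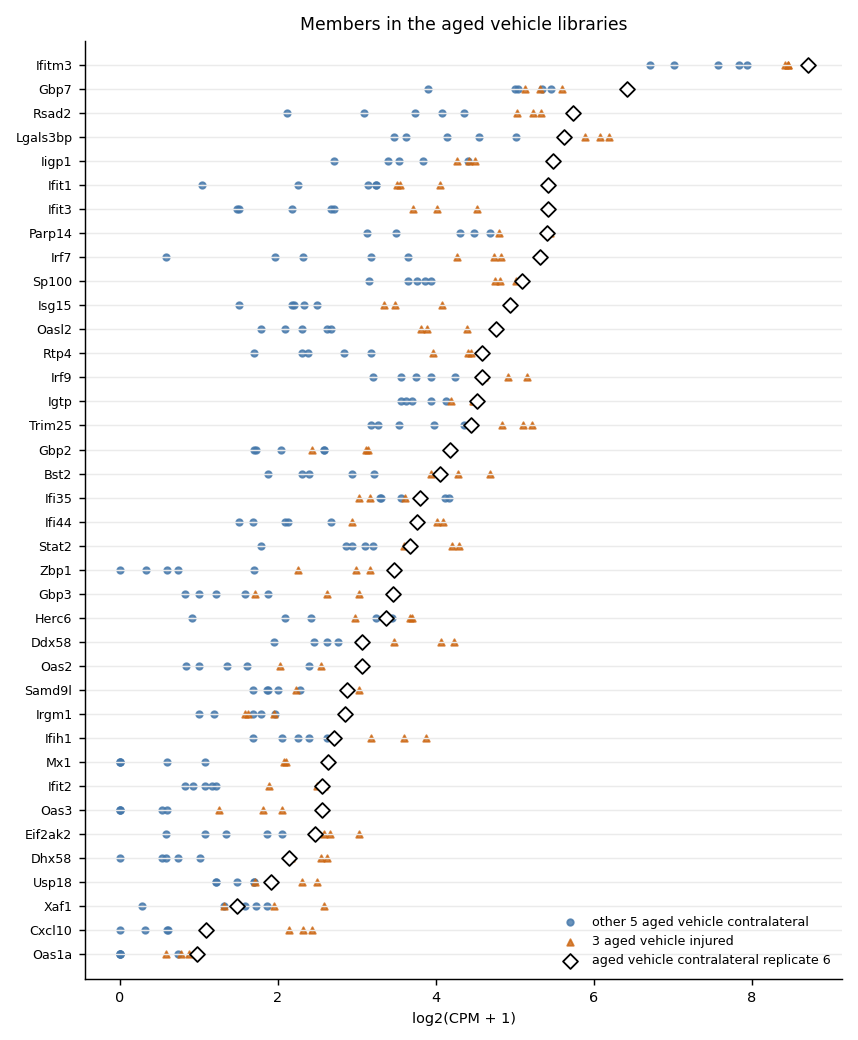
Level of each of the 38 members as log2(CPM + 1) (x axis; members on the y axis) in the 5 other aged vehicle contralateral libraries (circles), in replicate 6 of that group (diamonds) and in the 3 aged vehicle injured libraries (triangles). The diamond lies to the right of all circles for 35 members.

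Age was compared in vehicle mice. In contralateral muscle 3 of 37 members were called higher in aged mice and 0 lower, where 0.571% of all genes were called higher and 0.531% lower. At an unadjusted p under 0.05, 17 were higher and 0 lower (7.91% and 4.84% of genes), and without replicate 6 4 were higher, namely Ifitm3, Igtp, Irf7 and Oasl2, and 0 lower (11.1% of genes in either direction). Irf7 was at 0.872 to 3.97 CPM (median 1.898) in young and 0.504 to 38.9 CPM (median 6.04) in aged mice, with a log2 fold change of 2.38 ± 0.55 (adjusted p = 0.0262 by edgeR). Oasl2, a ubiquitin-like relative of the oligoadenylate synthetases, was at 1.34 to 4.33 CPM (median 2.67) and 2.45 to 26.2 CPM (median 4.57), with 1.55 ± 0.40 (adjusted p = 0.0471). Ifit3 was at 1.53 to 2.81 CPM (median 2.38) and 1.805 to 41.8 CPM (median 4.47), with 2.19 ± 0.58 (adjusted p = 0.0498). For all 3 the highest aged value was that of replicate 6, and the groups overlapped. Markers of some other cells, but not all, were also higher in aged mice in this comparison with all libraries. All 10 macrophage markers were positive, with 2 called higher and a median of 1.49 on the log2 scale. The 3 neutrophil markers tested had a median of 2.86 with 1 called. The 5 acute-phase genes tested, from a list partly known from earlier results, had a median of 3.99 with 3 called. Without replicate 6 the mean macrophage sum was 261 CPM in aged and 161 CPM in young mice. The neutrophil sum was then 9.26 against 4.04 CPM, and the acute-phase sum 8.93 against 29.3 CPM. Fibroblast and endothelial sums were lower in aged mice, at 872 and 136 CPM without replicate 6 against 1220 and 145 CPM. The part of these markers in the members' values was not tested.

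Without replicate 6 no member was called, and the smallest adjusted p among the members was 0.248. The values were then 1.36 ± 0.47 (adjusted p = 0.248) for Irf7, 0.61 ± 0.28 (adjusted p = 0.428) for Oasl2 and 0.73 ± 0.44 (adjusted p = 0.559) for Ifit3 by edgeR. The members' median log2 fold change was 0.65 with all libraries and 0.32 without it, against 0.03 and 0.06 for all genes. No member had all aged above all young values with or without it (0.317% and 0.5% of genes did). With all libraries, limma voom with or without the mouse as a block called 0 members. DESeq2 called 7, for which no share of all genes is given. The sample descriptions were written in 2 styles, one of them in all aged and in 3 of 6 young vehicle contralateral libraries, and within that style 0 members were called. In injured muscle 0 members were called between aged and young vehicle mice (0.0% of genes in either direction), and 0 had an unadjusted p under 0.05 (3.69% of genes were so and higher, 2.62% lower). The members' median was -0.00 against 0.00 for all genes, with 18 members higher and 19 lower in aged mice.

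NAM/PN was compared with vehicle within each age and leg. No member was called by edgeR in any of these 4 comparisons, where at most 1 gene of 12610 was called in either direction. In young contralateral muscle the median of the members was -0.02, with 18 above and 19 below 0, and 1 member, Igtp, had an unadjusted p under 0.05 (2.41% of genes were so and higher, 2.46% lower). In young injured muscle the median was -0.30, with 34 of 37 members below 0, while the median of all genes was -0.01. In the same comparison all 10 macrophage markers were below 0, with a median of -0.25, as were all 4 T and NK cell markers tested, with a median of -0.35, and all 10 MHC class I genes, with a median of -0.17, and their part was not tested. A single member, Samd9l, a restriction factor for poxviruses, had an unadjusted p under 0.05 (1.13% of genes lower) and values below all vehicle values (1.31%). Samd9l was at 5.76, 7.07 and 2.98 CPM in young NAM/PN against 10.2, 8.37, 9.998, 7.73 and 6.896 CPM in young vehicle injured muscle, with a log2 fold change of -0.71 ± 0.33 and an adjusted p of 1.00 by edgeR. It was named here after its values were seen.

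In aged contralateral muscle the median was -0.42 with 32 of 37 members below 0, and 11 members had an unadjusted p under 0.05 and were lower (3.07% of genes, against 0 members and 1.04% of genes higher). No member was called where 0.00793% of genes were called lower. Without replicate 6 of the vehicle group the median was 0.00, 19 members were above 0, and at an unadjusted p under 0.05 Stat2 was lower and Cxcl10 higher (3.17% of genes in either direction). The smallest adjusted p was 0.904 with all libraries and 1.00 without it. With all libraries no member was above or below all vehicle values, as 0.0397% of genes were in each direction, and the same held without replicate 6, where 0.0634% of genes were above and 0.0793% below.

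In aged injured muscle 36 of 37 members were above 0 in NAM/PN mice, with a median of 0.34 against 0.00 for all genes. Of these, 2 had an unadjusted p under 0.05 and were higher (1.59% of genes, and 5.8% lower), and 8 were above all vehicle values (5.37% of genes). Replicate 3 of the vehicle group was the lowest of its 3 libraries for 33 members (29.1% of genes). Without it the median was 0.19, 27 members were above 0, and 0 had an unadjusted p under 0.05. Bst2 was at 42.7, 34.5, 29.3 and 25.5 CPM in NAM/PN and 24.7, 18.5 and 14.4 CPM in vehicle mice, a log2 fold change of 0.79 ± 0.35 (adjusted p = 0.571 by edgeR). Samd9l was at 9.63, 7.23, 10.4 and 10.5 CPM and 7.17, 6.33 and 3.69 CPM, a log2 fold change of 0.74 ± 0.34 (adjusted p = 0.611). Both genes were chosen after their values were seen, and neither passed the adjusted threshold. The lowest NAM/PN value of Samd9l was 7.23 and the highest vehicle value 7.17 CPM.

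Ifitm3 in this comparison was at 368, 411, 433 and 559 CPM against 344, 352 and 352 CPM, and its log2 fold change was 0.34 ± 0.29. Lgals3bp was at 87.4, 84.7, 84.3 and 107 CPM against 66.8, 72.3 and 58.4 CPM, with 0.47 ± 0.30. Irf7 was at 31.2, 40.6, 32.8 and 34.6 CPM against 27.4, 25.7 and 18.3 CPM, with 0.55 ± 0.57. All 4 NAM/PN values of these 3 genes were above all 3 vehicle values, while the adjusted p was over 0.05 for each. They are among the 8 members without overlap, and other named members did overlap. Trim25 was at 35.4 to 44.8 CPM in NAM/PN and 27.6 to 36.2 CPM in vehicle mice, Irf9 at 31.9 to 37.2 and 23.5 to 34.8 CPM. Parp14 was at 36.7 to 60.5 and 27.0 to 42.8 CPM, and Gbp7 at 33.2 to 52.5 and 34.1 to 47.3 CPM. Cell type markers differed between the same libraries. Fibre markers summed to between 24090 and 46133 CPM in NAM/PN and between 56640 and 63471 CPM in vehicle mice, macrophage markers to between 2450 and 2852 CPM and between 1904 and 2485 CPM, and mitochondrial transcripts took between 7.02% and 12.0% and between 9.89% and 19.4% of reads. Fibroblast markers summed to between 4093 and 7449 CPM in NAM/PN and between 2677 and 3201 CPM in vehicle mice. Their part in the members' values was not tested.

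**Figure D4:**
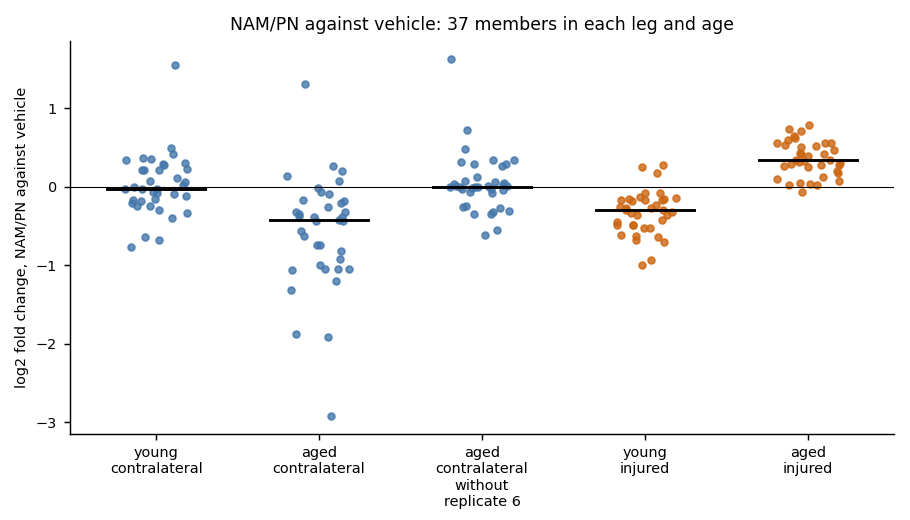
Log2 fold change of NAM/PN against vehicle (y axis) for the 37 members in each leg and age (x axis), with contralateral muscle in blue, injured muscle in orange and the median as a black line. The medians are -0.02 in young contralateral, -0.42 in aged contralateral, 0.00 in aged contralateral without replicate 6, -0.30 in young injured and 0.34 in aged injured muscle, and no member was called in any of them.

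Differences between effects were tested as interactions, and no member was called by edgeR in any of the 3. The effect of NAM/PN in injured muscle was more positive in aged than in young mice for 37 of 37 members, with a median difference of 0.64 against 0.01 for all genes and of 0.45 without replicate 3 of the aged vehicle injured group. Here 2 members had an unadjusted p under 0.05 (2.62% of genes in that direction), namely Samd9l at 1.44 ± 0.47 (adjusted p = 0.299) and Bst2 at 1.05 ± 0.48 (adjusted p = 0.541). All young NAM/PN libraries had one style of sample description, all aged libraries the other, and young vehicle injured libraries had both. A NAM/PN effect that depends on style cannot be told apart from age in this difference. The code for the compound in the descriptions also differs between young and aged mice, and it cannot be told apart from age either. The change of the injury effect with NAM/PN in aged mice had a median of 0.95 with all libraries, with 12 members at an unadjusted p under 0.05 and higher (3.16% of genes). Without replicate 6 the median was 0.36 and 1 member, Ddx58, was so (6.25% of genes in either direction). The change of the injury effect with age in vehicle mice had a median of -0.65, with 12 members lower at an unadjusted p under 0.05 (5.41% of genes). Without replicate 6 that median was -0.36, with 1 member, Oasl2, lower (8.33% of genes in either direction).

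Members varied together within groups. Over deviations of log2(CPM + 1) from group means, the median correlation between pairs of members was 0.41 in all 38 libraries, 0.25 without replicate 6, 0.48 in the 15 injured and 0.17 in the 22 other contralateral libraries. Rtp4, a chaperone for receptors, and Oasl2 followed the mean of the other members most closely over all libraries, with r of 0.88 and 0.89, and Ifi35 least at 0.15. The mean of the members correlated with the mean of the macrophage markers at 0.78 over all libraries, at 0.58 without replicate 6, at 0.18 in injured and at 0.79 in the other contralateral libraries. Over all libraries the 10 other genes closest to the members' mean included Slfn1, Ifi209, Trim30a, Ifi47, C1qb, Fcgr1, Ifi213, Ncf1 and Fcer1g, with r of 0.80 to 0.85. Without replicate 6 they included Trim30a, Ifi209, Aspm, Gm9844, Cenpe, Cenpf, Mndal, Smim22 and Fyb, with r of 0.67 to 0.78. These correlations share libraries and their depth and are given as a description.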

How the data were processed

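QuantSeq 3′ mRNA sequencing was done on 38 gastrocnemius libraries. The deposited values were raw read counts per Ensembl gene, which the authors made by aligning reads with STAR to GRCm38 and counting with htseq-count (HTSeq 2.16.2 per the submitters' processing notes). The annotation release and strand setting were not given in the sources used here. Of the 27554 identifiers, 27518 were matched to GENCODE M21 for symbols and positions. Totals of 4032414 to 7507191 counts limit precision for members near 0 reads, and intervals cover counting error only.

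Groups came from the labels, where treatment reads Control or NAM+B6. The code for the compound in the sample descriptions differs between young and aged mice. Genes were filtered with filterByExpr, scaled by TMM and fitted in 1 model of 8 groups with the quasi-likelihood test of edgeR 4.0.16 in R 4.3.3, with limma 3.58.1 and DESeq2 1.42.0 as alternatives, and p-values were adjusted by Benjamini-Hochberg over all 12610 genes with a threshold of 0.05. Values after ± are standard errors, which the test does not give directly. They were taken as the absolute log2 fold change divided by the square root of the F statistic, and are unstable for changes near 0. The members and lists were chosen with earlier results of these data known. Named members were the 2 most abundant tested of each role, the 3 largest called injury changes of each group and the called members of the other comparisons, and their levels were given by library, or as lowest, median and highest in groups of 6. Each mouse was a replicate, and 15 gave both legs. Legs of the same mouse were checked for shared deviations, and the consensus correlation was 0.0484, with pair correlations from -0.303 to 0.252. No pair of libraries agreed within sampling noise. The scripts were tested on simulated data. Promoters were taken from RefSeq, and correlations use log2(CPM + 1). Mx2 was not analysed here, and some results on other genes are not reported here. Alternatives were other filters, scalings and tools, the mouse as a block, each library left out, and the style of the sample description.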

Additional observations from a re-analysis of the deposited data

Results flagged for a closer look

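In groups of 4 to 10 libraries, the level of each of 38 members, and their mean, was noted when its highest or lowest library lay far from the nearest other one relative to the range of the group (Dixon's test at 95%). Of 234 group values examined 32 met this, where the nominal rate of 1 in 20 gives 11.7. That rate is for independent, normally distributed values. Members vary together and some have few reads, so 11.7 is not the number to expect by chance here.

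Of these, 17 were high values in replicate 6 of the aged vehicle contralateral group. Among RNA sensors, Dhx58 was at 3.43 CPM against at most 1.03 in the other 5 libraries, and Zbp1 was at 10.1 CPM against at most 2.24. Irf7, the transcription factor, was at 38.9 CPM against at most 11.6. The antiviral effectors were Ifit1 at 42.0, Ifit2 at 4.90, Ifit3 at 41.8, Mx1 at 5.23, Oas3 at 4.90, Oasl2 at 26.2 and Rsad2 at 52.6 CPM. Isg15 was at 29.7 CPM, and the GTPases Gbp2, Gbp3 and Irgm1 were at 17.2, 9.97 and 6.21 CPM. Ifi44 was at 12.6, Rtp4 at 23.0 and Sp100 at 33.2 CPM.

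The other 15 values were spread over several libraries of 5 groups. In young contralateral muscle Oas3 was at 0.447 CPM in vehicle replicate 2 and Oas1a at 0.249 CPM in NAM/PN replicate 1, with all other libraries of the group at 0, and Ifih1 was low in NAM/PN replicate 2 at 2.60 CPM. In aged NAM/PN contralateral muscle replicate 6 was high for Mx1 at 1.44, Oas3 at 0.619 and Rtp4 at 6.19 CPM, replicate 4 was high for Ifi35 at 20.3 CPM, and replicate 1 was low for Rsad2 at 4.36 CPM. In young vehicle injured muscle Ifit1 was high in replicate 1 at 20.3 CPM, Ifi35 was high in replicate 4 at 20.1 CPM and Ifi44 was low in replicate 2 at 8.53 CPM. In aged NAM/PN injured muscle Ifi44 at 26.1 and Rtp4 at 25.9 CPM were high in replicate 3, Lgals3bp was high in replicate 4 at 107 CPM and Zbp1 was low there at 3.82 CPM.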

How the results depend on the processing

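Called members numbered 32 and 28 for injury in young mice on vehicle and NAM/PN, 16 and 33 in aged mice, and 3 for age in contralateral muscle. Injury in young vehicle mice gave 18 within one style of description. Injury in aged vehicle mice gave 28 with total counts and no scaling factors, a setting chosen after seeing the data, and 9 with the libraries of those groups only. With total counts 49.3% of all genes were called higher in that comparison, against 20.8% with TMM. Age gave 7 with DESeq2, 1 with a filter at a mean of 1 CPM, 1 with style as a covariate, and 0 with limma voom, with voom quality weights, with the 2 groups only and within one style. With voom quality weights NAM/PN in aged injured muscle gave 2 and its interaction with age 4, against 0 each. The causes were not tested, except that fewer libraries enter the within-style and group-only fits. Among the alternative settings, shares of all genes called are given only for total counts and without aged vehicle contralateral replicate 6. The other counts of this section cannot be set against such a share.

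Without single libraries, injury calls ranged from 30 to 32, from 23 to 28, from 10 (without aged vehicle injured replicate 2) to 30 (without aged vehicle contralateral replicate 6) and from 31 to 33. Age calls ranged from 0 to 7. They were 0 without any of young vehicle contralateral replicates 1, 3, 4 and 5 or without aged replicate 6, 1 without young replicate 2 or 6 or aged replicate 3, 6 without aged replicate 5 and 7 without aged replicate 2 or 4. All other comparisons stayed at 0. No called value changed sign, whereas uncalled ones did: without aged vehicle contralateral replicate 6 the members' median for NAM/PN in aged contralateral muscle went from -0.42 to 0.00, and over left-out libraries that for age in injured muscle ran from -0.12 to 0.12 and that for NAM/PN in young contralateral muscle from -0.09 to 0.07.

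With the mouse as a replicate block in voom, injury gave 32, 30, 23 and 33 calls and age 0, against 32, 30, 22 and 33 and 0 in voom without it, so the block moved only 1 count. Members with few reads, such as Oas3 and Mx1, are limited by depth.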
